A study of Mus musculus with 6 samples.

Results

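Prg4 and 9 marker genes of the mesothelium (Msln, Upk3b, Upk1b, Wt1, Lrrn4, Krt8, Krt18, Krt19 and Gpm6a) were followed in lung RNA of mice fed a control or a high fat diet. The members were all probe sets whose platform annotation names only 1 of these 10 symbols, which gave 17 of the 45101 probe sets and 10 of the 18193 genes that a probe set names. The genes were chosen from a list assembled with these same signals in view, the diet difference of Prg4 and of several markers being known, so the diet differences of the 10 genes are given as a description, with no test. The samples were lungs of 6 wild type mice, of which 3 received control food and 3 received a high fat diet. Each lung was hybridised to its own array, so mice are the replicates. No source used here gives the strain, age or sex of the mice, the make-up of the diets or the time on them. Values are MAS5 signals, the Affymetrix summary of the probes of a probe set on a linear scale. The trimmed mean of an array, with 2 percent cut from each end, was 500 on average over the 6 arrays. How the arrays were scaled is not given by any source used here. A signal is read as a relative level within its array, and signals of different probe sets are not compared with each other.

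The mesothelium is the single layer of flattened cells that lines the pleura, the pericardium and the peritoneum. It shares simple epithelial keratins with other epithelia and carries genes of its mesodermal origin, such as the transcription factor Wt1. It secretes lubricating glycoproteins and hyaluronan, which let the lung slide against the chest wall. Prg4 encodes lubricin (proteoglycan 4), a mucin-like glycoprotein best known as the boundary lubricant of joints and also made by other tissues. A lung sample contains mesothelium only at its surface, and the keratins of the set are also expressed by airway and alveolar epithelium.

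RefSeq promoter windows, 250 bases before to 50 bases after an annotated start in build GRCm38.p6, were matched by symbol for 5 of the 10 members, Upk3b, Lrrn4, Gpm6a, Krt8 and Krt18, with 6 windows in all. The windows of 3 mesothelial markers and of Krt8 are shown, and these are all the windows that held a match to a motif named below. The markers and the keratins differed in which high fat mouse had the highest signal. Capitals mark matches, on either strand, to any of 6 motifs. These were GGAATG for TEAD factors, TGANTCA for AP-1, GNGTGGGNG for a WT1 type motif, AGATAA for GATA factors, GTAAACA for FOXO factors and TGACGTCA for the CRE. No matches overlapped each other in these windows. Each sequence is written 5′ to 3′ in the direction of transcription. The windows lie at chr5:136038246-136038545 on the plus strand for Upk3b, chr2:132880813-132881112 on the minus strand for Lrrn4, chr8:54779184-54779483 on the plus strand for the first of the Gpm6a windows and chr15:102004293-102004592 on the minus strand for Krt8.
Upk3b: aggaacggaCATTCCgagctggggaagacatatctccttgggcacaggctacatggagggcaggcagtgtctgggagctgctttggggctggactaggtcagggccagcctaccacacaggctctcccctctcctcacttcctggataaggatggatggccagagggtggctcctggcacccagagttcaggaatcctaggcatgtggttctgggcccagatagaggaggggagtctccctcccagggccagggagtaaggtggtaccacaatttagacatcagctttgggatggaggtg
Lrrn4: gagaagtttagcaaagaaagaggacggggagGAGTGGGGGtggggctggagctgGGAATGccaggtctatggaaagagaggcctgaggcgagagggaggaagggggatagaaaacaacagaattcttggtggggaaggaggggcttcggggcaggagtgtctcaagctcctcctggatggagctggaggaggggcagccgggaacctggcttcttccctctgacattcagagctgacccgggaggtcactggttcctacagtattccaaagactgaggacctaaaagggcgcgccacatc
Gpm6a: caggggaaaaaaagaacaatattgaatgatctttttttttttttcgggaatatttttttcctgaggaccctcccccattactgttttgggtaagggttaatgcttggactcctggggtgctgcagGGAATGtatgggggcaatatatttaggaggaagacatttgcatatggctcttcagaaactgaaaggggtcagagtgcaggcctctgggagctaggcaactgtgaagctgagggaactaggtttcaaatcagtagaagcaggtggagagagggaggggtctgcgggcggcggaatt
Krt8: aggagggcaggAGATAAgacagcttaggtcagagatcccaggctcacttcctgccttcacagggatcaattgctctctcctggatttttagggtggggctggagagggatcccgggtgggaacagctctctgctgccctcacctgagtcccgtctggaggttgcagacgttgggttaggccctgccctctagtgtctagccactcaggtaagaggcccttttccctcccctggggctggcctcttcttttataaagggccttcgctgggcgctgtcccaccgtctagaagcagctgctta
The TEAD letters began 241 bases before the start in Upk3b, 196 bases before it in Lrrn4 and 125 bases before it in Gpm6a. They were in 3 of the 6 windows of the members, against 14.7 percent of all 32851 windows of this length. The WT1 type letters stood in the Lrrn4 window alone among these 6, 219 bases before the start, and in 14.3 percent of all windows. The GATA letters were in the Krt8 window alone among these 6, 239 bases before the start, and in 11.2 percent of all windows. The second Gpm6a window and the Krt18 window held none of the motifs, and none of the 6 windows held the AP-1, FOXO or CRE letters, which were in 7.81, 3.65 and 1.79 percent of all windows. A match is a description of the letters and not evidence that a factor binds there. Prg4, Msln, Upk1b, Wt1 and Krt19 have no window shown.

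Properties of the whole arrays bear on these values. The median signal was 143.3 to 150.3 on the control arrays and 113.4 to 128.7 on the high fat arrays. Lung epithelial genes were bright in every sample, with surfactant protein C (Sftpc) at 32996 to 69407 and the club cell secretoglobin Scgb1a1 at 38296 to 75983. Marker signals of other tissue also differed between samples. The mean log2 signal of 6 skeletal muscle markers, set against the control mean, was 3.7 in control replicate 1 and 1.73 in high fat replicate 1 and lay between -3.09 and -0.61 in the other mice. Keratins of stratified epithelium stood apart in control replicate 1, where Krt4 had a signal of 30382 and Krt13 of 21082, against at most 281 and 125 in the other 5 mice. The 3 keratins of the set were not high in that sample. Whether other tissue was in a sample and contributed to the signals of the members was not tested.

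Of the 10 genes, 7 had brightest probe sets whose signals in the high fat mice all lay above those of the control mice, and 3 (Upk1b, Krt19 and Gpm6a) overlapped between the diets. Over all 12692 genes tested, 19.7 percent did not overlap with the high fat mice higher and 12.1 percent with them lower. By probe set, 10 of the 17 did not overlap with the high fat mice higher, against 14.6 percent of the 27027 kept, and 0 with them lower, against 21.7 percent. These counts describe a set chosen with that contrast known, and nothing is read from them. The genes outside the set were tested by limma with Benjamini-Hochberg adjustment over all genes, and those with an adjusted p under 0.05 are called changed. Over all genes 6.75 percent were called, 4.55 percent higher and 2.2 percent lower, and 25.5 percent had an unadjusted p under 0.05. All 10 genes passed the filter on dim probe sets. The median log2 difference of the 10 genes, high fat minus control, was 0.9, and that of all genes tested was 0.06. In lung tissue, more cells of a type and more RNA per cell cannot be told apart.

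**Figure D1:**
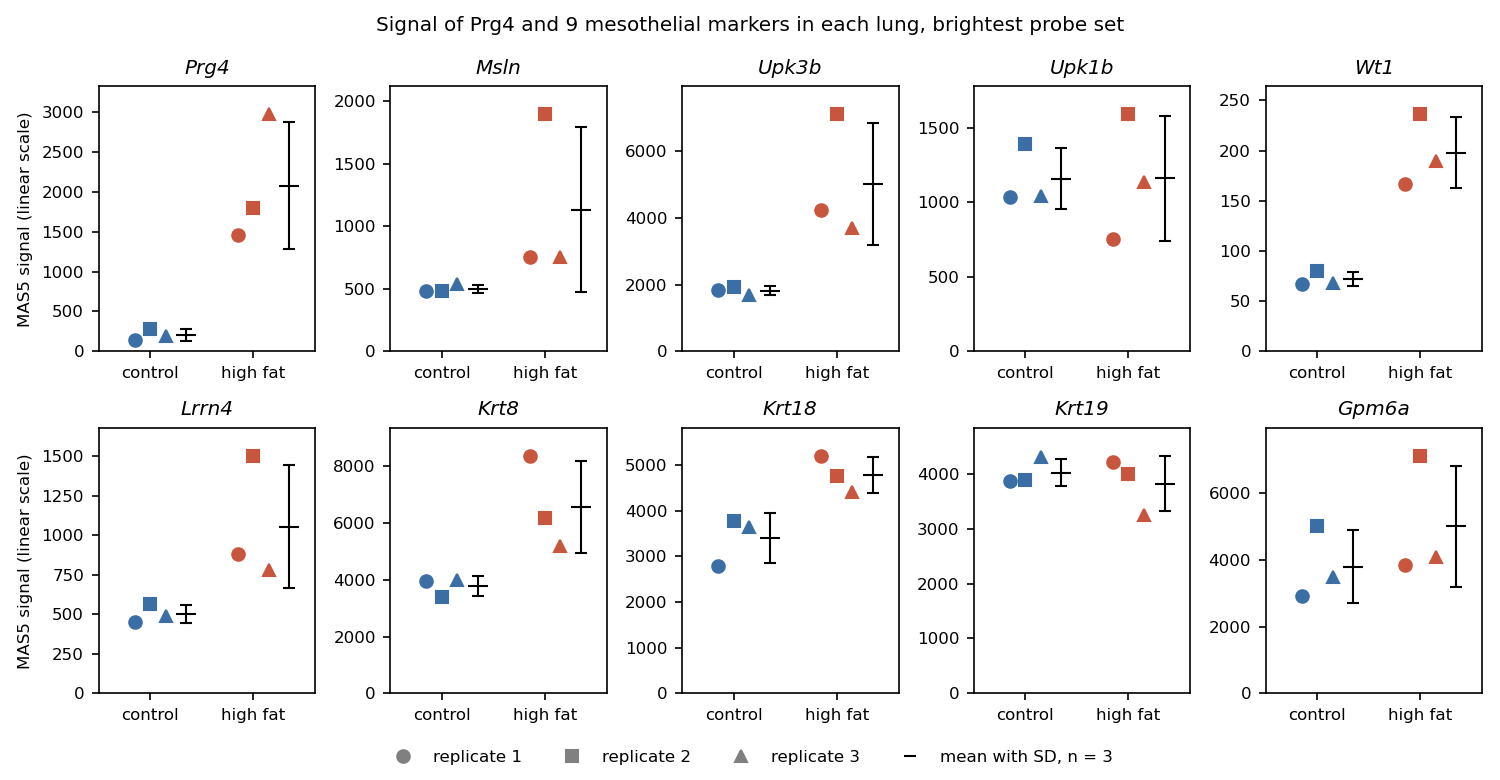
MAS5 signal (linear axis from 0) of the brightest probe set of each gene in the 3 control and 3 high fat lungs, with marker shape for the replicate number and a bar for the mean and SD (n = 3). Prg4 lies at 137 to 283 in control and 1457 to 2966 in high fat mice, while Upk1b, Krt19 and Gpm6a overlap between the diets.

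Prg4 showed the largest difference of the set. Its signals were 137, 283 and 196 in the control mice and 1457, 1797 and 2966 in the high fat mice. The lowest high fat signal was above every control signal, and high fat replicate 3 was the highest. The means were 206 ± 73.5 and 2074 ± 792 (SD, n = 3 each), a 10.1-fold difference of geometric means. On the log2 scale the difference was 3.33, and the SD within each diet was 0.52 in control and 0.53 in high fat mice. Of all genes tested, 2 had a larger difference upward, Ucp1, which was not called, and Alox15, which was. With any 1 mouse left out, the difference ran from 3.04 to 3.59. Prg4 has 1 probe set on the array, so no second measurement of it is at hand.

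The uroplakins are membrane proteins first known from the urothelium, and Upk3b and Upk1b are widely used markers of mesothelium. Upk3b, measured by a pair of probe sets, had brightest signals of 1853, 1928 and 1675 in control and 4241, 7097 and 3691 in high fat mice. The groups were apart, and high fat replicate 2 was the highest. The means were 1819 ± 130 and 5010 ± 1830 (SD, n = 3 each), 2.65-fold. The dimmer probe set gave 1060, 1278 and 1005 against 2179, 3844 and 1870, a 2.26-fold difference with the same order of the high fat mice. The brightest one carries a suffix (_s_at) that Affymetrix gives to probe sets matching several transcripts, and the dimmer one does not. The only probe set of Wt1 and the brighter one of Gpm6a carry the same suffix.

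Upk1b, a tetraspanin, did not separate the diets on any of its 4 probe sets. The brightest gave 1039, 1395 and 1043 in control and 753, 1591 and 1140 in high fat mice, a log2 difference of -0.05. The 4 log2 differences were -0.05, -0.13, -0.53 and 0.34 from the brightest to the dimmest. The probe sets disagreed most over high fat replicate 2. There the first and the fourth were above the control mean, by 0.47 and 0.6 on the log2 scale, and the second and the third below it, at -0.57 and -1.62. On the third, the signals were 929, 1015 and 927 in control and 921, 311 and 1017 in high fat mice, so 1 array set its difference. The sign of the brightest probe set also depended on scaling (0.23 with arrays centred on their median) and turned without control replicate 2 (0.09) or high fat replicate 1 (0.23). Its log2 difference without 1 mouse ran from -0.31 to 0.23.

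Mesothelin (Msln) is a membrane-anchored glycoprotein of mesothelial cells. Its signals were 482, 483 and 539 in control and 753, 1894 and 753 in high fat mice. All high fat signals were above the control signals, with high fat replicate 2 far above the other two. The log2 difference was 1.03 (2.05-fold) and was 0.59 without high fat replicate 2, while it was 1.01 to 1.25 without any other single mouse. Lrrn4, a leucine-rich repeat membrane protein used as a mesothelial marker, gave 451, 564 and 487 in control and 879, 1499 and 782 in high fat mice. It had the same highest mouse, and the means were 501 ± 57.8 and 1053 ± 389 (SD, n = 3 each), 2.02-fold. Without high fat replicate 2 the log2 difference was 0.73, against 1.02 with all mice.

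Wt1, the transcription factor of the embryonic and adult mesothelium, was dim in control mice, with signals of 67.5, 79.7 and 68.3, near the filter of 70.3. In high fat mice they were 167, 236 and 190, all above the control signals. The means were 71.8 ± 6.82 and 198 ± 35.2 (SD, n = 3 each), 2.74-fold. Dim MAS5 signals carry large relative errors, and with 32 added before the logarithm the log2 difference was 1.14 instead of 1.45. It was 1.68 with quantile normalization and 1.73 with arrays centred on their median. The neuronal and mesothelial membrane glycoprotein Gpm6a overlapped between the diets on both of its probe sets. The brighter gave 2900, 5004 and 3484 in control and 3831, 7091 and 4083 in high fat mice, and the dimmer 1183, 1665 and 1226 against 1174, 2567 and 1184. Replicate 2 was the highest mouse of each diet on both. The log2 differences were 0.38 and 0.19, and that of the brighter was 0.1 without high fat replicate 2.

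The keratins Krt8 (type II) and Krt18 (type I) pair into the intermediate filaments of simple epithelia, and Krt19 is a further type I keratin of such cells. The 3 probe sets of Krt8 gave the same picture. On the brightest, the signals were 3965, 3372 and 3971 in control and 8329, 6156 and 5174 in high fat mice, with no overlap and high fat replicate 1 the highest. The differences were 1.71-fold, 1.59-fold and 1.64-fold from the brightest to the dimmest. The other 2 carry a suffix (_x_at) for probes that can match further sequences, and Krt8 has processed pseudogenes, so related transcripts may add to the signal. The second and the fourth probe set of Upk1b carry this suffix too. Krt18 gave 2787, 3784 and 3639 in control and 5188, 4762 and 4405 in high fat mice, with the groups apart and the same order of the high fat mice as Krt8. The means were 3403 ± 538 and 4785 ± 392 (SD, n = 3 each), 1.42-fold. Krt19 was the exception among the keratins, with 3863, 3888 and 4306 in control and 4204, 3986 and 3251 in high fat mice. The groups overlapped, and the log2 difference was -0.08, but 0.19 with arrays centred on their median and 0.03 without high fat replicate 3.

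The high fat mice did not fall in 1 order across the set. By brightest probe set, high fat replicate 2 was the highest high fat mouse for 6 genes (Msln, Upk3b, Upk1b, Wt1, Lrrn4 and Gpm6a). High fat replicate 1 was the highest for the 3 keratins, and high fat replicate 3 for Prg4 alone. On the second and the third probe set of Upk1b, high fat replicate 2 was instead the lowest of the 3. Relative to the control mean, Prg4 was 7.4-fold, 9.13-fold and 15.1-fold in high fat replicates 1, 2 and 3. Upk3b was 2.34-fold, 3.91-fold and 2.03-fold in the same mice. The mouse with the most Prg4 thus had the least Upk3b and Lrrn4 of the 3, and the least of all 3 keratins. Wt1, Gpm6a and the brightest probe set of Upk1b were instead lowest in replicate 1, and Msln was level in replicates 1 and 3. Krt8 was 2.22-fold, 1.64-fold and 1.38-fold. With 3 mice these orders have no test.

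**Figure D2:**
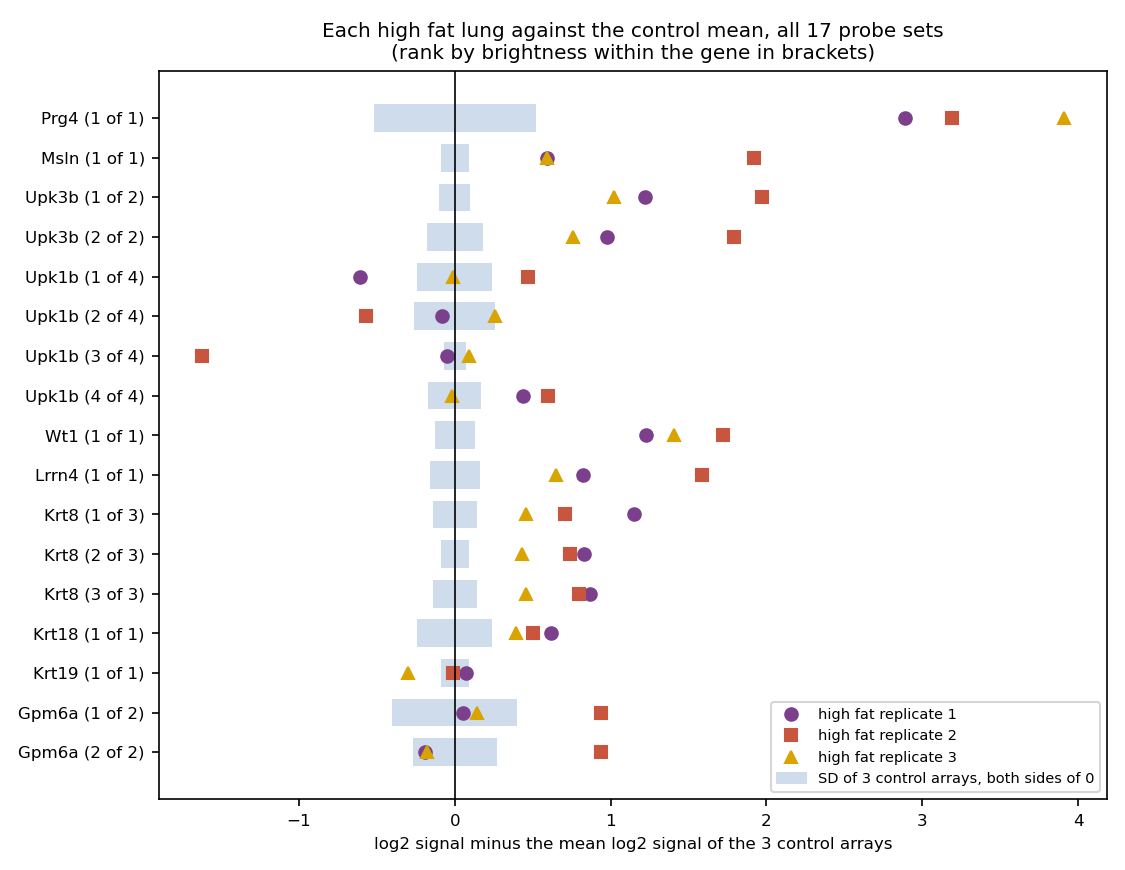
Log2 signal of each high fat mouse minus the mean log2 signal of the 3 control mice, for all 17 probe sets, with the control SD as a shaded bar. High fat replicate 2 (squares) lies farthest right for Msln, Upk3b, Wt1, Lrrn4 and Gpm6a, high fat replicate 1 (circles) for Krt8 and Krt18, and high fat replicate 3 (triangles) for Prg4. The 4 Upk1b probe sets disagree on high fat replicate 2.

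Likeness between profiles was measured as the root mean square difference of log2 signals over the 6 arrays, each gene set against its own control mean, so that small values mean similar size and order. Within the set, the closest pair was Upk3b and Wt1 at 0.19, followed by Msln and Lrrn4 at 0.2, Upk3b and Lrrn4 at 0.29 and Krt8 and Krt18 at 0.3. Among all genes tested, the profile nearest to Prg4 was that of Alox15, a lipoxygenase, at 0.28. Alox15 had signals of 104, 147 and 86.3 in control and 911, 1256 and 1481 in high fat mice, with the same order of the high fat mice as Prg4. The next were Ifi27l2a, Mrap, Fabp4, Pck1, Adipoq, Saa3 and Orm1, at 0.63 to 0.81. No member of the set was among these 8. Fabp4, Pck1 and Adipoq are on the adipocyte list and were highest in high fat replicate 1, not 3. Ifi27l2a and Orm1 were also highest in replicate 1, and Saa3 in replicate 2. Mrap was highest in replicate 3, at 336, 268 and 339 in the high fat mice. Of the adipocyte markers tested, Pparg alone was highest in replicate 3, at 385, 352 and 432. Nearest to Upk3b were Prr15 at 0.15, the member Wt1, and Efna2, Spsb1 and Crip1 at 0.2 to 0.21. Prr15 was at 59, 69.6 and 73.3 in control and 140, 270 and 128 in high fat mice. The filter of 70.3 was set on the mean over all 6 arrays, and most control signals of Prr15, Efna2 and Mrap lay below it. Nearest to Krt8 were Slc22a18, Ccdc74a, S100a1, Mrpl39 and Tmem158, at 0.06 to 0.08. A profile over 6 arrays is mostly set by the diet difference, and these values say nothing of shared control.

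Further genes of the mesothelium outside the set were examined next. Of 20 listed, 14 were tested by limma, 1 was called higher, 0 lower and 13 were not called, a share near the 6.75 percent called over all genes. The gene called was ezrin (Ezr), which links the membrane of microvilli to actin. It rose from 4439, 4677 and 4474 to 6039, 6383 and 5717, which is 1.33-fold (limma adjusted p = 0.0491, up to 0.165 without control replicate 3, and called with none of the mice left out). The median log2 difference of the 14 was 0.42, against 0.06 for all genes, and 7 lay above the control mice without overlap and 1 below, beside 19.7 and 12.1 percent of all genes. Among those not called, the mucin Muc16 (CA125) had signals of 260, 379 and 288 in control and 487, 807 and 501 in high fat mice (limma adjusted p = 0.0516). The mesothelial transcription factor Bnc1 had 245, 351 and 209 against 368, 615 and 476 (limma adjusted p = 0.0797), and Rspo1, a Wnt agonist, 343, 408 and 386 against 619, 873 and 455 (limma adjusted p = 0.095). As for Msln and Upk3b, high fat replicate 2 was the highest for Muc16, Bnc1 and Rspo1, and for the mean of the 14 (0.66). Cldn15 and Pdpn were instead highest in high fat replicate 1. Cldn15 was at 290, 328 and 244 against 568, 549 and 393 (limma adjusted p = 0.0507). Aldh1a2, Nkain4 and Slpi had log2 differences of 0.6, 0.2 and -1.3, not called, and that of Slpi was -0.39 without control replicate 1. Krt7, the simple type II keratin, was at 4853, 4522 and 5287 in control and 3929, 4377 and 3486 in high fat mice, the opposite side from Krt8 (limma adjusted p = 0.153). Calretinin (Calb2) and intelectin (Itln1), which mark mesothelium of other sites or species, were below the filter, at 9.44 to 59.3 and 6.29 to 49.1.

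Lubricin binds the hyaluronan receptor CD44 and the Toll-like receptors 2 and 4, and galectin 3 cross-links it. Of 22 such partners and hyaluronan genes, 13 were tested and limma called 0, with 3 at an unadjusted p under 0.05, a share near the 25.5 percent of all genes. The median log2 difference was -0.23, against 0.06 for all genes, and 0 of the 13 lay above the control mice without overlap and 3 below, beside 19.7 and 12.1 percent of all genes. Tlr2 was at 549, 692 and 570 in control and 388, 423 and 405 in high fat mice (limma adjusted p = 0.0582). The hyaluronan receptor Lyve1 was at 5411, 3798 and 4056 against 2720, 3668 and 2315 (limma adjusted p = 0.0926). Galectin 3 (Lgals3) was at 8018, 7503 and 7767 against 5527, 7146 and 4886 (limma adjusted p = 0.119). Cd44 overlapped between the diets, at 3806 to 4557 against 2908 to 4231, as did Tlr4, at 324 to 366 against 199 to 369. Of the hyaluronan synthases, Has1 was at 101 to 209 in control and 114 to 205 in high fat mice, and Has2 and Has3 were below the filter.

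Relatives of the members were examined in the same way. Of 21 paralogs, 10 were tested and limma called 0, with 2 at an unadjusted p under 0.05 (Krt7 and Krt4) beside 25.5 percent of all genes, and the median log2 difference was -0.22. The other uroplakins overlapped between the diets. Upk3a had signals of 104, 104 and 79.5 in control and 57.2, 69.7 and 131 in high fat mice, and the log2 differences of Upk3a, Upk1a and Upk2 were -0.24, -0.34 and 0.17. Gpm6b, the closest relative of Gpm6a, was at 1845, 1703 and 1606 in control and 1865, 2732 and 1913 in high fat mice, with the same highest mouse as Gpm6a (limma adjusted p = 0.25). Krt4 had a log2 difference of -4.26 that rested on control replicate 1, and its limma adjusted p was 0.173.

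Of 20 transcription factors known from mesothelium or from the control of Prg4, 17 were tested. Of these, 1 was called higher, 0 lower and 16 were not called, beside 6.75 percent called over all genes. Their median log2 difference was 0.34. The factor called was Bnc2, the relative of Bnc1, which rose from 380, 347 and 308 to 542, 664 and 529 (limma adjusted p = 0.0345, up to 0.118 without control replicate 3, and called with none of the mice left out). Smad3, which carries TGF-beta signals, was at 1081, 1186 and 1101 against 1510, 1481 and 1511 (limma adjusted p = 0.0528). The Hippo pathway coactivators Yap1 and Wwtr1 had log2 differences of 0.34 and -0.5, and the TEAD factors Tead1 to Tead4 had 0.38, 0.46, 0.68 and 0.1, none of them called. Creb5, a known activator of Prg4 in joints, was below the filter, with signals of 32.4 to 122.

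Mesothelial cells that turn mesenchymal lose keratins and E-cadherin and gain mesenchymal genes. Of 16 genes of this transition, 14 were tested. Of these, 2 were called higher, 0 lower and 12 were not called, beside 6.75 percent called over all genes. Their median log2 difference was 0.15. Those called were E-cadherin (Cdh1), which epithelial cells express, and S100a4, which fibroblasts and leukocytes express. Cdh1 rose from 5322, 5372 and 4848 to 7093, 8165 and 6817, which is 1.42-fold (limma adjusted p = 0.0391, up to 0.152). S100a4 rose from 1236, 1669 and 1200 to 2106, 2808 and 2238, which is 1.75-fold (limma adjusted p = 0.028, up to 0.104). Both highest values came without control replicate 3. The factors Snai1, Snai2 and Zeb1 had log2 differences of -0.01, -0.14 and -0.21, and vimentin (Vim) of 0.13. Larger differences, not called either, were those of Cdh2 (1.28), Acta2 (0.76) and Zeb2 (0.45). Cdh2 was at 79.5, 122 and 125 in control and 590, 129 and 230 in high fat mice (limma adjusted p = 0.15). The limma adjusted p was 0.0546 for Acta2 and 0.148 for Zeb2.

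**Figure D3:**
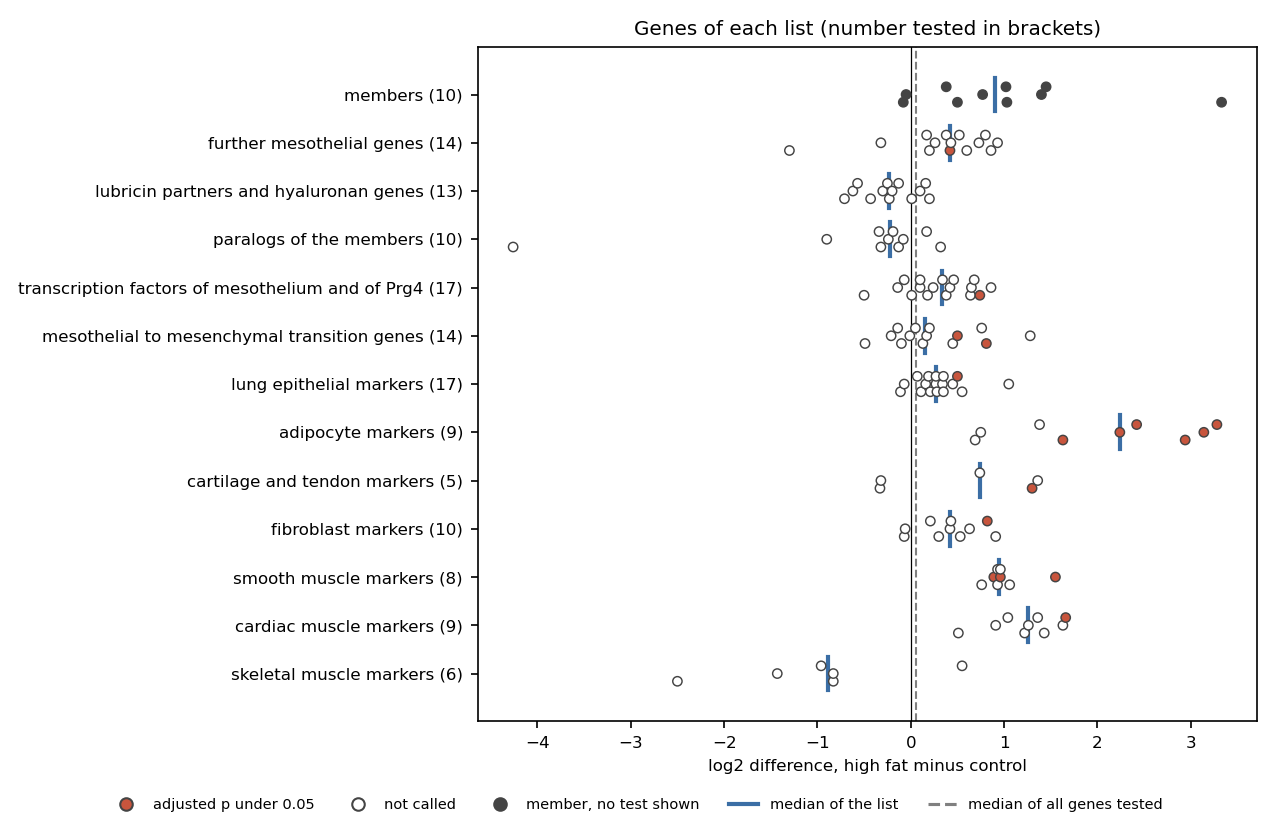
Log2 difference, high fat minus control, of each gene tested in the set and in 12 other lists, with the members as dark points without a test, filled red points for an adjusted p under 0.05 in the other lists, a blue bar for the median of the list and a dashed line for the median of all genes. The members have a median of 0.9, partners of lubricin lie around -0.23 and adipocyte markers around 2.24.

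Markers of other cell types were set beside the members. Each list was summed as its mean log2 signal per array, set against the control mean. Adipocyte markers were at -0.4 to 0.57 in control and 1.86 to 2.35 in high fat mice. Of 9 tested, 6 were called higher and 0 lower, beside 4.55 and 2.2 percent of all genes. Their median log2 difference was 2.24. Fabp4, the adipocyte fatty acid carrier, rose 7.66-fold and Adipoq, the hormone adiponectin, 9.71-fold (limma adjusted p = 0.00218 and 0.00796). Plin4, which coats lipid droplets, rose 4.71-fold and Pck1, of glyceroneogenesis, 8.83-fold (limma adjusted p = 0.00352 and 0.00983). The leptin gene (Lep) failed the filter, with 6.26 to 34.2 in control and 242 to 279 in high fat mice. Among the high fat mice the adipocyte score peaked in replicate 1. In that mouse Prg4, Wt1, Gpm6a and the brightest probe set of Upk1b were the lowest of the 3, and Krt8, Krt18 and Krt19 the highest. The other probe sets of Upk1b were not lowest in it. There Upk3b and Lrrn4 lay in between, and Msln was level with replicate 3. Visceral and mediastinal fat is itself covered by mesothelium, and the part of fat tissue in the signals of the members was not tested.

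Lung epithelial markers, which bear on the keratins, were at -0.12 to 0.15 in control and 0.25 to 0.33 in high fat mice. Of 17 tested, 1 (Cdh1) was called higher and 0 lower, beside 4.55 and 2.2 percent of all genes. The median log2 difference was 0.27, beside 0.77 for Krt8 and 0.5 for Krt18. The ciliated cell factor Foxj1 was at 516, 437 and 364 against 1361, 585 and 909, with the highest signal in the mouse that was highest for Krt8 (limma adjusted p = 0.061). The airway epithelial factor Elf3 was at 416 to 537 against 660 to 787 (limma adjusted p = 0.0674). Foxj1 and Elf3 had the largest differences of the list. The smallest were those of Sftpc, Cldn18, Hopx and Nkx2-1, with log2 differences of 0.11, 0.07, -0.11 and -0.07. Of the 17, 15 had a positive difference and 2 a negative one. Signals lay above the control mice without overlap for 8 and below for 0, beside 19.7 and 12.1 percent of all genes. The mean of the list was 0.25, 0.29 and 0.33 in high fat replicates 1, 2 and 3, and the 3 keratins were lowest in replicate 3. Sftpc, Sftpb, Sftpa1, Aqp5, Hopx, Scgb1a1 and Nkx2-1 were highest in replicate 3. Sftpd, Abca3, Ager, Cldn18, Epcam, Cdh1 and Muc1 were highest in replicate 2, and Foxj1, Elf3 and Scgb3a2 in replicate 1. The part of epithelium in the keratin signals was not tested.

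Stromal and muscle markers were summed in the same way, and their calls stand beside 4.55 percent of all genes called higher and 2.2 percent lower. Fibroblast markers were at -0.13 to 0.24 in control and 0.38 to 0.46 in high fat mice, and 1 of 10, the collagen Col1a1, was called higher (1.76-fold, limma adjusted p = 0.0282). Smooth muscle markers were at -0.27 to 0.21 and 0.47 to 1.6, with 3 of 8 called higher (Myl9, Tagln and Cnn1, limma adjusted p = 0.0324 to 0.0353). Cardiac muscle markers were at -0.52 to 0.64 and 0.16 to 2.57, with the atrial light chain Myl7 called higher (3.16-fold, limma adjusted p = 0.0277). None of these 5 genes was called without control replicate 2, and their adjusted p by limma with 1 mouse left out reached 0.0856 for Col1a1 (without control replicate 3), 0.112 for Myl9, 0.12 for Tagln, 0.123 for Cnn1 and 0.0948 for Myl7. Among the high fat mice, smooth and cardiac muscle scores peaked in replicate 1 and were lowest in replicate 2. The 3 keratins also peaked in replicate 1, while Msln, Upk3b, Wt1, Lrrn4 and Gpm6a peaked in replicate 2. So did the brightest and the dimmest probe set of Upk1b, but not the others. The part of muscle or stroma in the signals of the members was not tested. Of 6 skeletal muscle markers tested, limma called 0, with 0 at an unadjusted p under 0.05, beside 25.5 percent of all genes. Without replicate 1 of both diets, the mice with the most skeletal muscle signal, the log2 difference was 0.3 for Krt18, against 0.5 with all mice, 0.16 for Upk1b, against -0.05, and -0.18 for Krt19, against -0.08. It was 3.29 for Prg4, 1.23 for Msln, 1.51 for Upk3b, 1.52 for Wt1, 1.05 for Lrrn4, 0.63 for Krt8 and 0.37 for Gpm6a.

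Cartilage and tendon, where Prg4 is also known, were represented by 14 markers, of which 9 fell below the filter. The cartilage genes Col2a1 and Acan were at 3.97 to 18.9 and 5.52 to 147 over the 6 mice, and the tendon gene Tnmd at 3.24 to 32.8. Of 5 tested, 1 was called higher, beside 4.55 percent of all genes. The gene was fibromodulin (Fmod), a collagen-binding proteoglycan, which rose from 160, 237 and 168 to 457, 427 and 486 (limma adjusted p = 0.0121, 0.055 without control replicate 3). Chad was at 353 to 609 in control and 704 to 2401 in high fat mice (limma adjusted p = 0.0762), and it was highest in high fat replicate 1.

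**Figure D4:**
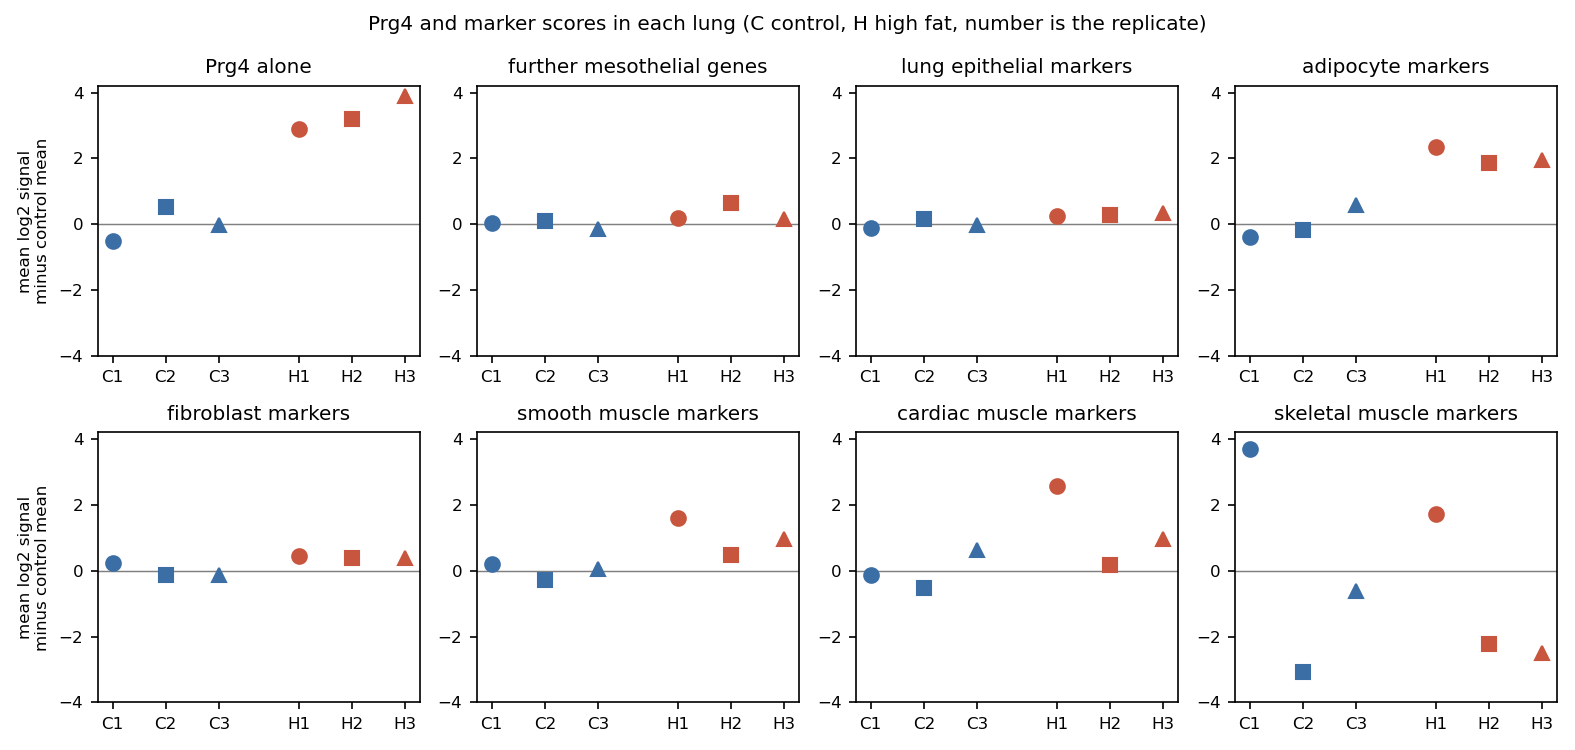
Log2 signal of Prg4 and mean log2 signal of 7 marker lists in each lung, minus the control mean, on a common axis. Prg4 is highest in high fat replicate 3, the further mesothelial genes (0.66) in high fat replicate 2, and the adipocyte (2.35), smooth muscle and cardiac muscle scores in high fat replicate 1. Skeletal muscle is high in replicate 1 of each diet.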

How the data were processed

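Total RNA from 6 mouse lungs was labelled with biotin, per the labels' protocols. The deposited values are linear intensity signals that the authors made with MAS5, per the submitters' processing notes. No source used here gives its version or settings. No detection calls were used, and the number of arrays, 3 per diet, limits the precision.

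Symbols came from the platform annotation, in which 34958 probe sets carry 1 symbol, 932 several and 9211 none. Of the 34958, 34754 were found by Entrez identifier in the RefSeq table of GRCm38.p6, and 0 symbols changed. Signals below 1 were set to 1, log2 was taken, and the 64 control probe sets were dropped. Probe sets with a mean log2 signal at or above the 40th percentile (6.14) were kept, 27027 in all. Each gene was represented by its brightest probe set. Diets were compared by limma 3.58.1 in R 4.3.3 (lmFit, eBayes with an intensity trend, two-sided, 4 residual degrees of freedom), with Benjamini-Hochberg adjustment over 12692 genes and a call at an adjusted p under 0.05. The step was tested on simulated data. Folds are ratios of geometric means.

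The members and lists were chosen with earlier results of these data known. Named genes are the members, up to 4 called genes of each list by smallest adjusted p (or the 2 smallest p where none was called) and the 8, 5 and 5 genes most like Prg4, Upk3b and Krt8. Genes named beside these were chosen after their values were seen. Alternatives were other scalings, constants, filters, variance models and rules for probe sets, the replicate number as a block, and leaving out mice.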

Additional observations from a re-analysis of the deposited data

How the results depend on the processing

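Prg4 kept its log2 difference within 3.04 to 3.61 under all alternatives run. The median of the 10 members moved to 1.17 with arrays centred on their median and ran from 0.66 (without high fat replicate 2) to 1.07 with 1 mouse left out. Median centring moved the median of all genes from 0.06 to 0.33, the count of called genes from 857 to 3197 and the share of calls that were higher from 67.4 to 95.4 percent, and it turned Krt19 from -0.08 to 0.19. Called genes numbered 515 with the mean of all probe sets (53.8 percent higher), 135 without an intensity trend and 160 to 566 with 1 mouse left out. With median centring, calls were 9 for further mesothelial genes, 1 for paralogs, 6 for transcription factors, 5 for transition genes, 10 for epithelial, 3 for cartilage, 7 for fibroblast, 7 for smooth muscle and 4 for cardiac markers. With quantile normalization they were 2 for further mesothelial, 1 for lubricin partners and 3 for epithelial genes. With no filter they were 0 for further mesothelial, 1 for transition and 0 for epithelial genes. With the mean of all probe sets they were 0 for further mesothelial genes, transcription factors, epithelial, cartilage and smooth muscle genes and 1 for transition genes. Without a trend they were 0 for all of these lists but the adipocyte and cartilage ones.

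With 1 mouse left out, calls ran from 0 to 2 for further mesothelial and cartilage genes, 0 to 1 for transition, epithelial, fibroblast and cardiac genes, 0 to 6 for smooth muscle genes and 4 to 7 for adipocyte markers, and were 0 for transcription factors. Without replicate 1 of both diets, a fit chosen after seeing the data, 307 genes were called, 1 of them a smooth muscle gene, and 0 were called of further mesothelial genes, transcription factors, transition, epithelial, cartilage and cardiac genes. The labels state no pairing of mice by replicate number. Deviations from the group means correlated at 0.166, 0.107 and -0.0416 between mice of the same number (1, 2 and 3). Between mice of unlike numbers they correlated at -0.213 to 0.127, and these values do not settle whether the numbers pair the mice. With the replicate block, calls were 735 in all, 3 for further mesothelial genes, 2 each for transcription factors, epithelial, cartilage and fibroblast genes, 6 for smooth muscle and 3 for cardiac markers.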
